A study of Mus musculus with 15 samples.

Results

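The genes described here are 44 mouse genes of S phase and DNA replication, chosen by name. They were the origin licensing factors, the replicative helicase, the sliding clamp and its loader, polymerases and primase, single-strand binding and Okazaki fragment factors, enzymes of nucleotide supply, chromatin assembly factors and regulators of S phase entry. They were 44 of the 24982 gene symbols counted in the series, and all 44 passed the filter on low counts that left 15696 genes for testing. RNA-seq of polyadenylated RNA had been done on the mouse embryonic stem cell (ESC) line E14TG2 during a 4-day transition to epiblast-like cells (EpiLCs), which resemble the epiblast shortly after implantation. There were 5 groups of 3 libraries. They were ESCs at day 0, control cells at day 2 (d2) and day 4 (d4), and Atg7 knockout (KO) cells at d2 and d4. Atg7 encodes the E1-like enzyme needed to form autophagosomes. ESCs grew on a feeder layer of inactivated fibroblasts from mouse embryos, with LIF, the MEK inhibitor PD0325901 and the GSK3 inhibitor CHIR99021. All 12 libraries of d2 and d4 came from cells seeded on fibronectin in N2B27 medium with activin A, bFGF and knockout serum replacement. How the KO was made, from how many clones, and whether the 3 libraries of a group were separate cultures is not stated in the labels, so p-values measure only the spread between these libraries. No KO library of day 0 was analysed here, so a KO effect at d2 cannot be told apart from one already present in ESCs.

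Replication starts at origins, which are licensed in G1 when the origin recognition complex, Cdc6 and Cdt1 load the ring of Mcm2 to Mcm7 onto DNA. In S phase, Cdc45 and the GINS complex turn that ring into the active helicase, polymerase alpha with primase lays down primers, and polymerases delta and epsilon extend them on the sliding clamp Pcna. Most of these genes are transcribed around the G1/S boundary by E2F factors, which the retinoblastoma family holds back in G1. ESCs are known for a short G1 phase and a high share of cells in S phase, so that these genes are abundant in them.

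E2F factors are known to bind 8-base sites, and 4 forms were searched on both strands (TTTCCCGC, TTTGGCGC, TTTCGCGC and TTTGCCGC) in RefSeq windows of 250 bases before to 50 bases after a gene's start, on build GRCm38.p6. The start base is counted as 0. Of the 44 genes, 35 had a window, 39 windows in all, and 13 windows, of 13 genes, held at least 1 E2F match. That is 33.3% of the members' windows, beside 3.65% of the 15359 windows of genes tested and 2.26% of all 32851 windows. The stretches below show what such matches look like, with the matched letters in capitals. Mcm6 had 3 matches, of which a pair overlapped, in chr1:128359736-128359855, minus strand. Mcm5 had an overlapping pair in chr8:75109339-75109388, plus strand. Cdc6 had 1 in chr11:98907991-98908040, plus strand, and Pola1 had 1 in chrX:93632266-93632315, minus strand. Ung (chr5:114130285-114130384, plus strand) and Mcm2 (chr6:88898831-88898930, minus strand) are shown because their levels moved in KO cells while no match was found in their windows.
Mcm6: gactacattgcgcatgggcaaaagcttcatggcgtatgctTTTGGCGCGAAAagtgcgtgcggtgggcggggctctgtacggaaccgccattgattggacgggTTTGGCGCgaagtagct
Mcm5: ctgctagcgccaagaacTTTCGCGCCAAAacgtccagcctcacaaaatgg
Cdc6: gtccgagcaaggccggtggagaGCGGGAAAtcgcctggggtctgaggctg
Pola1: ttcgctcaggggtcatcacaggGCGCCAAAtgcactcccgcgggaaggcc
Ung: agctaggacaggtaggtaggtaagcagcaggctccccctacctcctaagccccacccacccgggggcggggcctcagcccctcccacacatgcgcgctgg
Mcm2: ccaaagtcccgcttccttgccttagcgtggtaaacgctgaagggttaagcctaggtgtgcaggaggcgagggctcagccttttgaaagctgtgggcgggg

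The other members with an E2F match were Orc1, Cdt1, Mcm3, Mcm7, Gins3, Rfc3, Pold1, Pold3 and Lig1. A pair of other motifs was searched in the same windows. The CCAAT box (CCAAT, both strands) was in 56.4% of the members' windows and in 38% of the windows of genes tested. The CHR element of mitotic genes (TTTGAA, both strands) was in 10.3% of the members' windows and in 12.1% of those of genes tested. Among a list of 26 G2 and M phase genes, 75% of windows held the CHR letters and 4.17% an E2F form. A match is a run of letters and not a bound site.

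**Figure D1:**
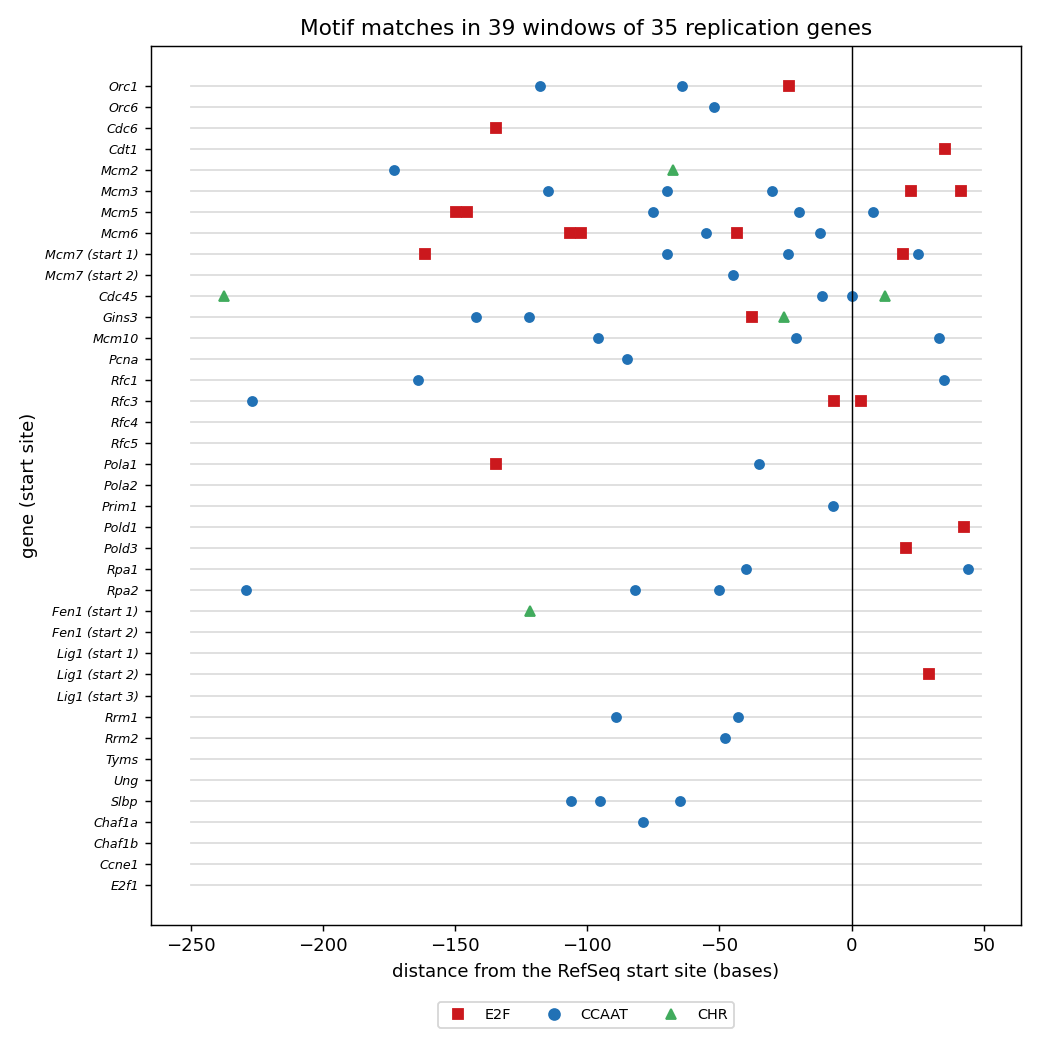
Positions of E2F (red squares), CCAAT (blue circles) and CHR (green triangles) matches in 39 RefSeq windows of 35 replication genes, each row 1 start site, with distance from the start site in bases on the x axis. E2F matches stand in 13 of the 39 rows and CHR matches in 4.

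Libraries held between 14059237 and 23371546 counts, and the 44 genes between 121 and 13637 counts in a library. Levels below are CPM, counts relative to library totals scaled by TMM factors, which lay between 0.906 and 1.04. Atg7 was lower in KO than in control by 0.92 ± 0.11 (log2 ± SE) at d2 and by 0.71 ± 0.11 at d4, with adjusted p = 8.34e-06 and 8.39e-05 in edgeR. Pluripotent cell markers summed to 2034 to 3858 CPM over all libraries. The summed level of 10 fibroblast markers lay between 258 and 1957 CPM in ESCs, 277 and 326 in d2 control, 478 and 866 in d2 KO, 85.1 and 90.5 in d4 control and 126 and 175 in d4 KO libraries. In KO against control, 5 of these 10 rose at d2 and 1 of 10 rose at d4, at an adjusted p under 0.05 in edgeR. This and the marker calls that follow stand beside 20.4% of all genes that rose and 21.4% that fell at d2, and 19.5% and 18.1% at d4. The median log2 difference of the 10 fibroblast markers was 1.23 at d2 and 1.26 at d4. At d2 8 of them lay above control without overlap and none below (29.6% and 31.7% of all genes). At d4 7 lay above and 1 below (27.6% and 27.2% of all genes). Summed markers of primitive endoderm reached at most 364 CPM and those of trophoblast at most 644 CPM, both in d4 libraries. Of 6 endoderm markers 2 rose in KO at d2 and 1 at d4. The trophoblast markers Cdx2 and Elf5 were at or near 0 in every library. Of the 4 others, 4 fell at d2 and 3 at d4, and of 8 pluripotent cell markers 4 rose and 2 fell at d2 and 6 rose at d4. The part of the endoderm, trophoblast and pluripotency markers in the results was not tested. Hprt was at 183 to 203 CPM in the ESC libraries and at no more than 2.94 CPM in the other 12. E14TG2a cells are known as an Hprt-deficient line, and whether the ESC libraries come from the same subline as the others is not given. Every comparison with ESCs below rests on those 3 libraries, so a difference over time cannot be told apart there from one between sublines. The 401 genes of chromosome 18 had a median KO difference of 0.56 at d2 and 0.01 at d4, where the medians of the other chromosomes lay between -0.10 and 0.09 at d2 and between -0.11 and 0.05 at d4. None of the 44 genes lies on chromosome 18. The shift stood in each d2 KO library, with chromosome 18 medians of 0.56, 0.54 and 0.55 against the mean of the d2 controls. For the KO effect at d4 less that at d2 the chromosome 18 median was -0.59. In control cells it was 0.35 from d2 to d4. The cause of these shifts, and their part in the differences of the 44 genes, was not tested.

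In Atg7 KO cells many of the 44 replication genes were lower at d2. A list of 33 further genes of the replication machinery, described below, had no such fall as a whole, with a median of 0.0047. Of the 44 genes, 20 fell and 2 rose in KO cells at an adjusted p under 0.05, where 21.4% of all genes tested fell and 20.4% rose. The 20 reached across the licensing factors, the clamp loader, the ligase, the single-strand binding proteins, the nucleotide enzymes and both cyclins E. Their median difference was -0.14 on the log2 scale over all 44, beside -0.01 over all genes. In 31 of the 44 the KO libraries were all below the control libraries and in 5 all above, beside 31.7% and 29.6% of all genes. The summed level of the 44 was 7821 to 7926 CPM in d2 control and 6648 to 7012 CPM in d2 KO libraries. RNA from whole cultures cannot tell fewer cells in S phase from less of these RNAs per cell. The fibroblast markers that rose with the KO at d2 are counted above. With their summed level as a covariate 23 members fell and 1 rose. Without d2 KO replicate 2, the d2 library with the highest sum, and ESC replicate 3, the ESC library with the lowest, 25 fell and 2 rose. Leaving out any 1 of the 6 d2 libraries gave 15 to 18 that fell and 1 to 2 that rose. ESC replicate 3 is not in this comparison but shares its estimate of the spread, and its part in the 25 was not tested.

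At d4 members changed in KO cells in both directions, in shares not far from those of all genes. Of the 44, 11 rose (25%) and 9 fell (20.5%), where 19.5% of all genes rose and 18.1% fell. No result about the list is read from these shares. The median over the 44 was 0.0039, beside -0.011 over all genes and 0.039 over the 10577 genes with at least 10 CPM in 3 libraries. Those that rose were Ung, Cdt1, Pold1, Pole, Lig1, Tyms, Mcm2, Pola1, Rfc5, Mcm5 and Mcm3, and those that fell were Ccne2, Prim1, Orc6, Slbp, Cdc6, Rfc4, Orc1, Prim2 and Rrm1. In 14 members every KO library lay above every control library and in 14 below, beside 27.6% and 27.2% of all genes. The summed level was 6392 to 6554 CPM in d4 control and 6578 to 6685 CPM in d4 KO libraries. The split moved with the filter: with this stricter filter, which kept only those 10577 genes, 8 rose and 14 fell. The median of the same 10577 genes was 0.039 in the main fit and -0.023 with the stricter filter. The part of that shift in the split was not tested. With the fibroblast covariate 10 rose and 12 fell, and without the 2 libraries named above 13 rose and 12 fell. Neither of those 2 libraries is in the d4 comparison, though both share its estimate of the spread.

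The KO effect differed between the days for 20 members. It was higher at d4 than at d2 for 19 and lower for 1, Prim1, at an adjusted p under 0.05 for the difference itself, where 18.6% and 17.6% of all genes differed in these directions. The median difference of the KO effect over the 44 was 0.15, beside -0.0095 over all genes and 0.038 over the 10577 genes of the stricter filter. A group of 6 members fell at d2 and rose at d4: Ung, Cdt1, Lig1, Tyms, Rfc5 and Mcm2. On build GRCm38 these lie at chr5:114130386-114139323, chr8:122568015-122573554, chr7:13277283-13311433, chr5:30058202-30073617, chr5:117378103-117389047 and chr6:88883474-88898780, per GENCODE. That is 13.6% of the 44, where 4.11% of all genes did so, and no member rose at d2 and fell at d4, which 3.01% of all genes did. In 4 members, Ccne2, Rrm1, Cdc6 and Prim2, the level fell on both days (9.09%, beside 5.59% of all genes). None rose on both days. Most of these changes were small: tested against a 1.5-fold change, 0 members passed in edgeR at d2 and 0 at d4 (1 on each day at an unadjusted p under 0.05), and Cdt1 and Ung passed for the difference between days. Calls close to the threshold are given below with the number of 8 other settings that changed them: DESeq2's size factors in edgeR, no filter, the stricter filter, DESeq2, only the groups compared, a replicate block, the fibroblast covariate, and the fit without those 2 libraries. The count of members whose effect was lower at d4 moved with the method, to 6 with only the groups compared, 6 with the stricter filter and 3 in DESeq2. With the stricter filter the median difference of the 10577 genes moved from 0.038 to -0.034, and the part of that shift in the count was not tested.

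**Figure D2:**
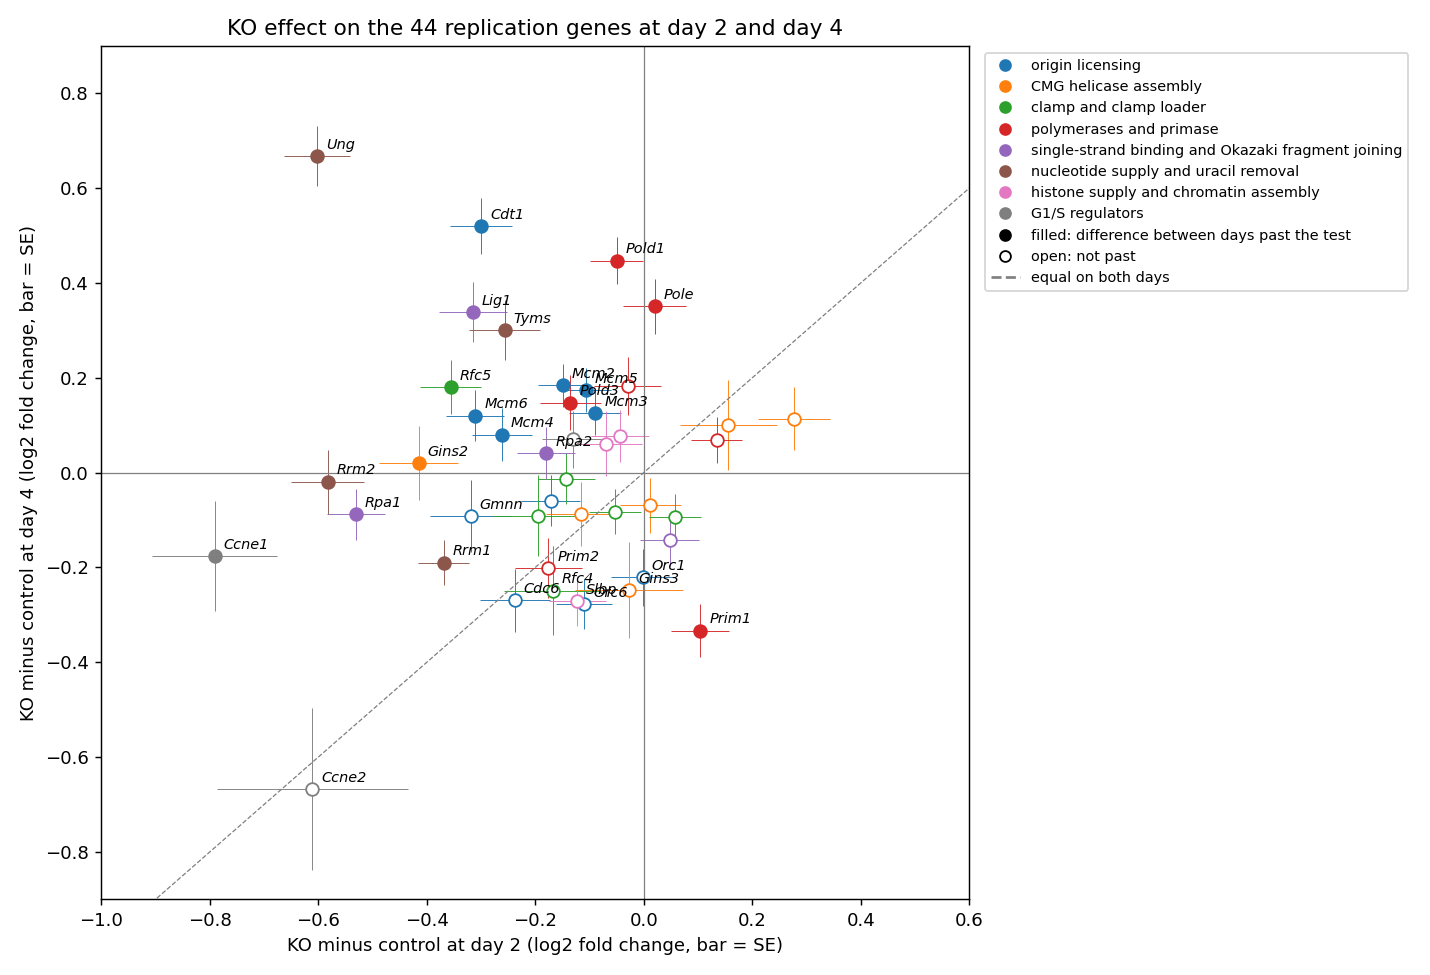
KO minus control at d2 (x axis) and at d4 (y axis) for the 44 genes, as log2 fold changes with bars of 1 SE, coloured by role. Filled points are the 20 whose KO effect differed between days, and 19 of these lie above the dashed line of equal effects, with Ung at -0.60 and 0.67.

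Counts by role group, here and below, stand beside the 21.4% of all genes that fell and 20.4% that rose at d2. At d4 18.1% fell and 19.5% rose, and for the difference between days 18.6% were higher and 17.6% lower. Of 11 origin licensing genes, 7 fell in KO at d2 (63.6%) and none rose. At d4 4 rose (36.4%) and 3 fell (27.3%). Cdt1, which brings the Mcm ring to origins and is destroyed in S phase, was at 169.8, 173 and 169 CPM in d2 control and 137, 143 and 136 CPM in d2 KO libraries. At d4 it was at 76.2, 78.6 and 72.0 CPM in control and 111, 113 and 101 CPM in KO libraries. The KO libraries thus lay below the controls at d2 and above them at d4, with no overlap on either day. The log2 difference was -0.30 ± 0.057 at d2 (adjusted p = 0.000607), 0.52 ± 0.059 at d4 (6.38e-06) and 0.82 ± 0.082 between the days (2.88e-06). Mcm6, a subunit of the ring, was at 468, 475 and 452 CPM in d2 control and 361, 386 and 378 in d2 KO libraries, and it fell by 0.31 ± 0.054 (adjusted p = 0.00028). At d4 its levels were 289, 278 and 271 CPM in control and 301, 301 and 309 CPM in KO, which did not pass the test (0.12 ± 0.054, adjusted p = 0.0942) although the groups did not overlap. It passed without the 2 libraries named above (0.12).

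At d2 the log2 differences of the other ring subunits were smaller. Mcm4 fell at d2 (-0.26 ± 0.055), as did Mcm7 (-0.17 ± 0.054) and Mcm2 (-0.15 ± 0.046). Mcm2 was at 536, 538 and 506 CPM in d2 control and 472, 481 and 471 CPM in d2 KO libraries, and at 471, 497 and 469 CPM in d4 control and 555, 533 and 545 CPM in d4 KO libraries. Those sets did not overlap on either day, and at d4 Mcm2 rose (0.18 ± 0.046), together with Mcm5 (0.17 ± 0.047) and Mcm3 (0.13 ± 0.048). The difference between the days was past the test for Mcm2 (0.33 ± 0.065), Mcm3 (0.22 ± 0.067), Mcm4 (0.34 ± 0.078), Mcm5 (0.28 ± 0.066) and Mcm6 (0.43 ± 0.077), and not for Mcm7 (0.11 ± 0.076, adjusted p = 0.27). Summed over Mcm2 to Mcm7 the level was 2589 to 2647 CPM in d2 control, 2247 to 2368 in d2 KO, 2121 to 2196 in d4 control and 2267 to 2323 in d4 KO libraries. Some of these calls were not kept in every fit. The Mcm2 call at d2 was lost without control replicate 1 or 2 or KO replicate 1 or 3 (-0.13 to -0.14) and with the fibroblast covariate (-0.12), and Mcm7 at d2 without control replicate 3 (-0.16) or KO replicate 1 (-0.13). The Mcm3 call at d4 was lost without control replicate 1 or 3 or any KO replicate (0.09 to 0.14) and under 6 of the 8 settings (0.064 to 0.13). Its difference between days was lost without d4 control replicate 1 (0.18) or d4 KO replicate 2 (0.19) and with the stricter filter (0.14).

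Orc1, Orc6, Cdc6 and Gmnn each fell in KO cells on at least 1 of the days. Orc6, a subunit of the origin recognition complex, was at 91.7, 94.5 and 92.9 CPM in d4 control and 75.6, 76.0 and 78.7 CPM in d4 KO libraries, and it fell by 0.28 ± 0.052 (adjusted p = 0.000589). Every KO library was below every control. At d2 the values were 104, 107 and 104 CPM in control and 91.0, 102 and 98.6 CPM in KO, not past the test (adjusted p = 0.0949) but past it without the 2 libraries named above (-0.15). Orc1, the ATPase subunit of that complex, fell at d4 (-0.22 ± 0.06). Cdc6, the loader ATPase, fell at d2 (-0.24 ± 0.064) and at d4 (-0.27 ± 0.066). Gmnn encodes geminin, which binds and blocks Cdt1. It fell at d2 (-0.32 ± 0.075) and did not pass at d4 (-0.092 ± 0.076, adjusted p = 0.369).

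Of the 6 genes of helicase activation, 1 fell and 1 rose at d2 (16.7% each), shares below those of all genes. None passed at d4 in edgeR, when 1 had an unadjusted p under 0.05 and 0 passed in DESeq2. Gins2, a GINS subunit, was at 93.7, 97.2 and 90.1 CPM in d2 control and 62.9, 80.1 and 67.6 CPM in d2 KO libraries and fell by 0.42 ± 0.074 (adjusted p = 0.000329). At d4 it was at 39.4, 38.8 and 40.4 CPM in control and 39.3, 38.9 and 42.1 CPM in KO. Its KO libraries all lay below the controls at d2 alone, and the difference between days was 0.44 ± 0.11 (adjusted p = 0.00488). Of its exons, 67.3% overlap Gse1 on the opposite strand, so without stated strand its counts are uncertain. Mcm10, which joins the helicase to the fork, was at 173, 159.9 and 178 CPM in d2 control and 199, 212 and 209 CPM in d2 KO libraries. It rose by 0.28 ± 0.066 (adjusted p = 0.0034) with no overlap, and at d4 it was at 173, 174 and 149 and 180.1, 171 and 185 CPM in control and KO. Gins3, another GINS subunit, was at 25.0, 22.8 and 24.1 CPM in d4 control and 22.2, 17.6 and 20.7 CPM in d4 KO libraries, which did not pass (adjusted p = 0.0654) although every KO library was lower. It passed under 4 of the 8 settings (-0.25 to -0.31) and without KO replicate 1 (-0.32). The d2 and d4 KO differences of Cdc45, Gins1 and Gins4 lay between -0.12 and 0.16 and none passed.

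In the clamp and its loader, 2 of 6 fell at d2 (33.3%), and 1 rose and 1 fell at d4 (16.7% each, near the shares of all genes). Rfc5, a small loader subunit, was at 142, 138 and 141 CPM in d2 control and 111, 107 and 111 CPM in d2 KO libraries. At d4 it was at 121, 131 and 128 CPM in control and 144, 148 and 139 CPM in KO. The groups did not overlap on either day and their order turned: it fell at d2 (-0.36 ± 0.056, adjusted p = 0.000121) and rose at d4 (0.18 ± 0.056, 0.0186), a difference of 0.54 ± 0.08 (8.81e-05). The d4 call was lost without control replicate 1 (0.15) or KO replicate 2 (0.16) and with the stricter filter (0.12). Rfc2 was at 144, 149 and 146 CPM in d2 control and 133, 133 and 131 CPM in d2 KO libraries (-0.14 ± 0.052, adjusted p = 0.0379). That call did not survive leaving out any 1 of the 6 d2 libraries (-0.13 to -0.16), and it was lost under 3 of the 8 settings (-0.11 to -0.14). Rfc4 was at 47.9, 45.2 and 51.1 CPM in d4 control and 41.3, 40.8 and 39.3 CPM in d4 KO libraries (-0.25 ± 0.093, adjusted p = 0.0455), a call lost without control replicate 1 or 3 or any KO replicate (-0.20 to -0.26) and with no filter (-0.24). Pcna, the clamp itself, was at 200.4 ± 10.3 and 193 ± 2.56 CPM (mean ± SD, n = 3) in d2 control and KO and at 280.4 ± 11.7 and 265 ± 7.30 CPM at d4, and neither difference passed. GENCODE names 2 Pcna pseudogenes, so that Pcna counts depend on how shared reads were treated.

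Of 7 primase and polymerase genes, 1 fell and 1 rose at d2 (14.3% each), shares below those of all genes. At d4 3 rose (42.9%) and 2 fell (28.6%). Pold1, the catalytic subunit of polymerase delta, was at 234, 232 and 235 CPM in d2 control and 226, 221 and 231 CPM in d2 KO libraries, which did not pass (-0.05 ± 0.048, adjusted p = 0.424). At d4 it was at 104, 106 and 96.5 CPM in control and 144, 141 and 133 CPM in KO. Every d4 KO library lay above every control, and Pold1 rose by 0.45 ± 0.05 (adjusted p = 5.13e-06), with a difference between days of 0.50 ± 0.069 (5.01e-05). Pole, the catalytic subunit of polymerase epsilon, also rose at d4 (0.35 ± 0.058), and so did Pola1, that of polymerase alpha (0.18 ± 0.061), whose call was lost without d4 control replicate 1 or 3 or KO replicate 1 or 3 (0.16 to 0.19) and with the stricter filter (0.12). Prim1, the catalytic primase subunit, was at 89.0, 87.4 and 87.4 CPM in d2 control and 90.7, 99.1 and 93.6 in d2 KO libraries, and at 86.9, 90.7 and 92.8 CPM in d4 control and 69.0, 73.5 and 72.2 in d4 KO libraries. It fell at d4 by 0.33 ± 0.055 (adjusted p = 0.000188) and was the 1 member whose KO effect was lower at d4 than at d2 (-0.44 ± 0.077, 0.000384).

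The accessory subunits gave small differences. Prim2, the large primase subunit, was at 75.2, 69.2 and 73.9 CPM in d2 control and 62.5, 63.3 and 67.2 CPM in d2 KO libraries, and at 68.4, 68.0 and 74.6 and 62.3, 64.1 and 57.0 CPM at d4. It was lower in KO on both days (-0.18 ± 0.062 and -0.20 ± 0.063). The d2 call was lost without control replicate 1 or 3 or KO replicate 1 or 2 (-0.15 to -0.16) and under 2 of the 8 settings (-0.16 to -0.17), and the d4 call without control replicate 3 (-0.16) or KO replicate 3 (-0.15). Pola2, the regulatory subunit of polymerase alpha, was at 103, 98.7 and 99.7 CPM in d2 control and 111, 108 and 112 CPM in d2 KO libraries and rose by 0.13 ± 0.047 (adjusted p = 0.0293), a call lost without control replicate 2 or 3 or KO replicate 1 or 3 (0.12 to 0.13) and under 2 of the 8 settings (0.13 to 0.14). Pold3 passed for neither day alone, and its difference between days was 0.28 ± 0.08 (adjusted p = 0.0116).

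Of the 4 genes of single-strand binding and Okazaki fragment joining, 3 fell at d2 (75%). Rpa1, the large subunit of the single-strand binding protein RPA, was at 554, 574 and 537 CPM in d2 control and 373, 394 and 385 CPM in d2 KO libraries, and fell by 0.53 ± 0.053 (adjusted p = 1.68e-06). At d4 it was at 436, 437 and 440.1 CPM in control and 408, 411 and 416 CPM in KO, not past the test (adjusted p = 0.209) but past it with the stricter filter (-0.15). The gap between the groups was wide at d2 and narrow at d4, and the difference between the days was 0.44 ± 0.075 (0.000281). Lig1, the ligase that seals Okazaki fragments, was at 330.4, 332 and 316 CPM in d2 control and 259.8, 269 and 258 CPM in d2 KO libraries, and at 185, 195 and 181 CPM in d4 control and 235, 239.9 and 234 CPM in d4 KO libraries. Its order turned without overlap, as it fell at d2 (-0.32 ± 0.063, adjusted p = 0.000855) and rose at d4 (0.34 ± 0.064, 0.000561), with 0.65 ± 0.089 between the days. Rpa2 fell at d2 (-0.18 ± 0.054), a call lost without control replicate 2 (-0.15) or KO replicate 1 (-0.14). Fen1, the flap endonuclease, was at 96.9, 102 and 96.8 CPM in d4 control and 89.3, 86.6 and 91.4 CPM in d4 KO libraries, without overlap and just outside the threshold (adjusted p = 0.0506), and it fell under 6 of the 8 settings (-0.14 to -0.20). An antisense gene covers 78.8% of the Fen1 exons, so its counts are uncertain too.

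All 4 genes of nucleotide supply and uracil removal fell at d2, and the KO effect was higher at d4 than at d2 in all 4. Ung encodes the glycosylase that removes uracil from DNA. It was at 188, 186 and 173 CPM in d2 control and 109.9, 129 and 121 CPM in d2 KO libraries, and at 63.1, 67.8 and 68.3 CPM in d4 control and 106, 106 and 105 CPM in d4 KO libraries. Control and KO libraries were apart on both days with the order turned, so that d4 KO libraries were closer to d2 KO than to d4 control libraries. Ung fell by 0.60 ± 0.061 at d2 (adjusted p = 1.88e-06) and rose by 0.67 ± 0.063 at d4 (1.12e-06), and its difference between days, 1.27 ± 0.088 (2.43e-07), was the largest of the 44. Rrm2, the small subunit of ribonucleotide reductase, was at 421, 436 and 420.0 CPM in d2 control and 262, 309.8 and 281 CPM in d2 KO libraries and fell by 0.58 ± 0.067 (adjusted p = 6.74e-06). At d4 its libraries overlapped, at 315, 343 and 344 CPM in control and 333, 308 and 347 CPM in KO, and the difference between days was 0.56 ± 0.095.

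Tyms, thymidylate synthase, was at 35.3, 35.9 and 33.8 CPM in d2 control and 30.7, 28.7 and 28.5 CPM in d2 KO libraries, and at 51.9, 52.5 and 50.1 CPM in d4 control and 63.3, 63.2 and 63.7 CPM in d4 KO libraries. The KO libraries were the lower ones at d2 and the higher ones at d4. It fell at d2 (-0.26 ± 0.065, adjusted p = 0.00478) and rose at d4 (0.30 ± 0.063, 0.00138), and the difference was 0.56 ± 0.09 (0.000195). GENCODE names 1 Tyms pseudogene. Rrm1, the large reductase subunit, fell on both days (-0.37 ± 0.046 and -0.19 ± 0.047). Its difference between days (0.18 ± 0.066, adjusted p = 0.0424) was near the threshold. It was lost without d2 control replicate 1 or 3, d2 KO replicate 1 or 3, any d4 control replicate, or d4 KO replicate 2 or 3 (0.15 to 0.19), and under 5 of the 8 settings (0.11 to 0.18).

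**Figure D3:**
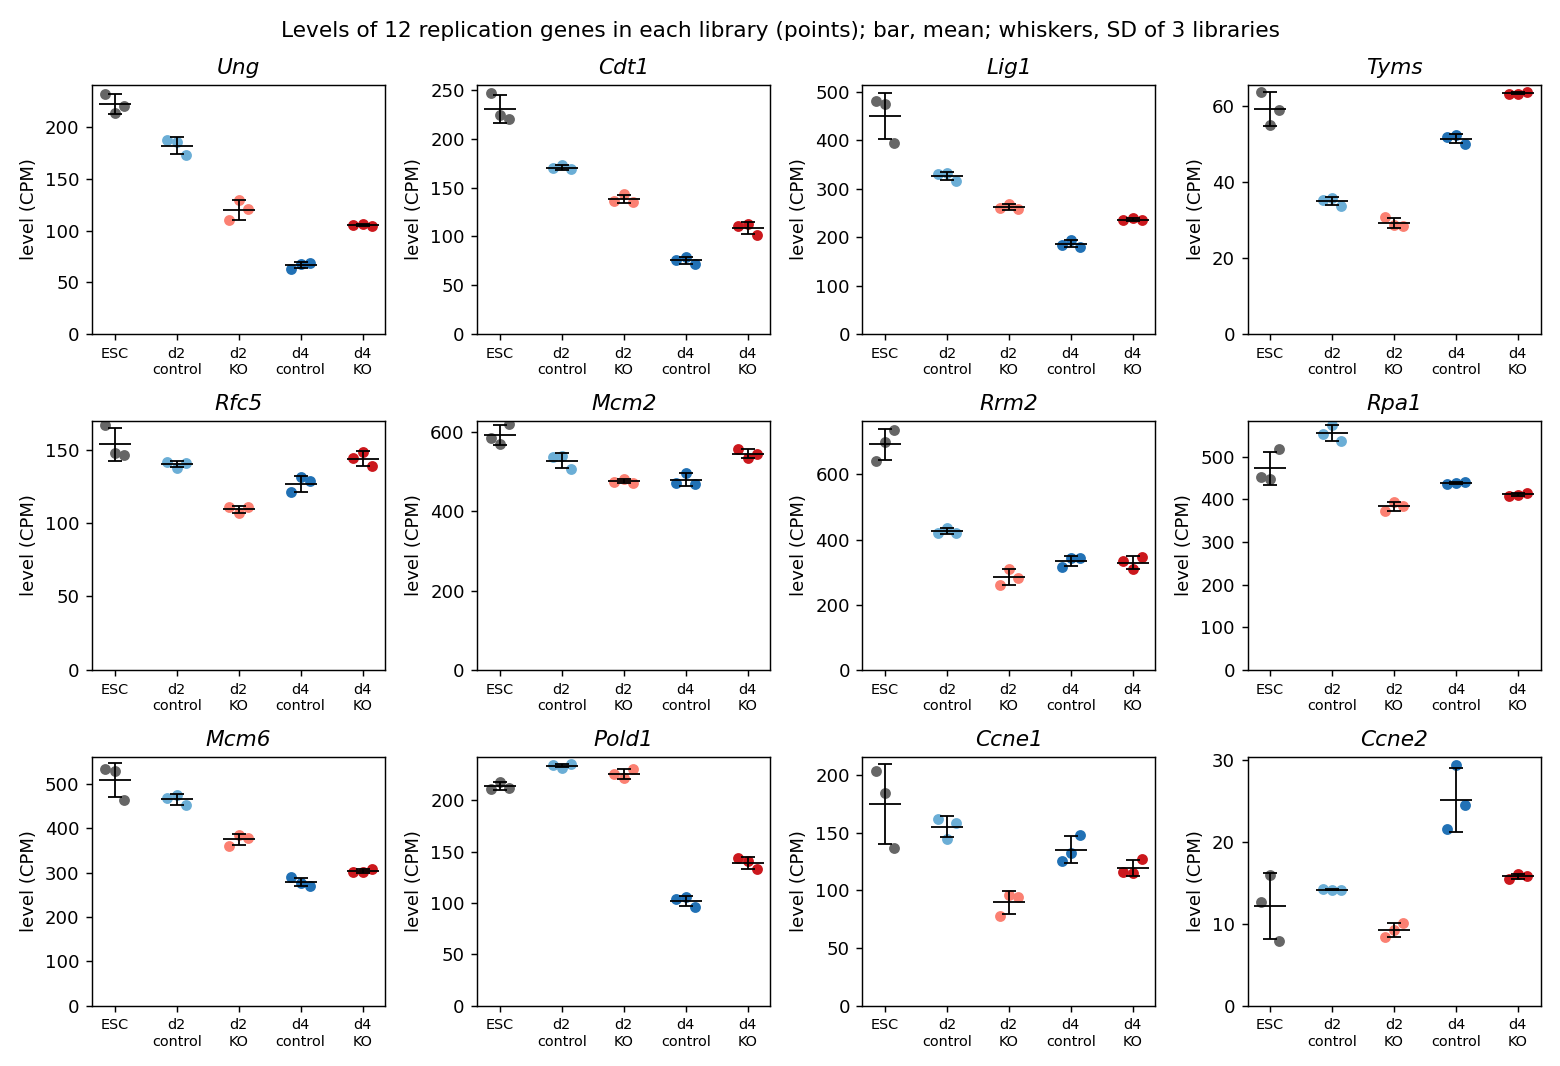
Levels in CPM (y axis, from 0) of 12 replication genes in each library of the 5 groups, with the mean as a bar and the SD of 3 libraries as whiskers. Ung, Cdt1, Lig1, Tyms, Rfc5 and Mcm2 lie lower in KO at d2 and higher in KO at d4, while Ccne2 lies lower in KO on both days.

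Of 3 genes of histone supply and chromatin assembly, none passed the edgeR test at d2 and 1 fell at d4. At d2 1 of the 3 had an unadjusted p under 0.05 and 0 passed in DESeq2. Slbp, which binds the stem-loop of replication-dependent histone mRNAs, was at 143, 132 and 134 CPM in d4 control and 109, 111 and 118 CPM in d4 KO libraries and fell by 0.27 ± 0.053 (adjusted p = 0.000757). At d2 it was at 103, 101 and 104 CPM in control and 89.7, 98.3 and 95.4 CPM in KO, lower in every KO library but not past the test (adjusted p = 0.0723), and past it without the 2 libraries named above (-0.15). Chaf1a and Chaf1b are subunits of the chromatin assembly factor that places histones behind the fork. Chaf1a was at 96.8 ± 3.01 and 93.9 ± 0.513 CPM in d2 control and KO and at 95.9, 92.6 and 90.2 and 98.9, 93.6 and 101 CPM in the d4 libraries, and Ubxn6 overlaps 52.5% of its exons on the opposite strand. Chaf1b was at 87.6, 88.2 and 89.9 and 84.9, 84.2 and 84.2 CPM at d2 and at 51.4, 50.2 and 54.9 and 52.2, 59.6 and 51.4 CPM at d4. None of these differences passed the test.

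The cyclins E, which activate Cdk2 to start S phase, showed the largest falls at d2. Ccne1 was at 162, 145 and 159 CPM in d2 control and 78.2, 96.2 and 94.6 CPM in d2 KO libraries and fell by 0.79 ± 0.12 (adjusted p = 6.19e-05). At d4 control libraries were at 125, 133 and 148 CPM and KO libraries at 116, 115 and 128 CPM, overlapping and not past the test (-0.18 ± 0.12, adjusted p = 0.252). It passed under 3 of the 8 settings (-0.18 to -0.33), with the value farthest from 0 in the fit with the fibroblast covariate. The KO effect on Ccne1 differed between the days by 0.62 ± 0.16 (adjusted p = 0.00782). Ccne2 was at 14.2, 14.2 and 14.2 CPM in d2 control and 8.47, 9.24 and 10.2 CPM in d2 KO libraries, and at 21.6, 29.4 and 24.6 CPM in d4 control and 15.5, 16.1 and 15.9 CPM in d4 KO libraries. Every KO library was below every control on both days, and Ccne2 fell by 0.61 ± 0.18 at d2 (adjusted p = 0.0108) and by 0.67 ± 0.17 at d4 (0.00568). E2f1, the activating E2F of G1/S, did not pass on either day, with -0.13 ± 0.057 at d2 and 0.07 ± 0.061 at d4. Of the 13 members with an E2F match in their window 5 fell and 0 rose at d2, and 6 rose and 2 fell at d4. Of the 22 with a window and no match 9 fell and 2 rose at d2, and 4 rose and 5 fell at d4. Of the 9 without a window 6 fell and 0 rose at d2, and 1 rose and 2 fell at d4. Over all genes 21.4% fell and 20.4% rose at d2, and 19.5% rose and 18.1% fell at d4. These counts were not tested, and no link to the motif is read from them.

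In control cells many of the 44 replication genes fell from d2 to d4. At an adjusted p under 0.05, 29 of the 44 fell and 8 rose, where 34.6% of all genes tested fell and 33.9% rose. In 29 every d4 library lay below every d2 library and in 7 above, beside 38.7% and 37.5% of all genes. The median was -0.21, beside -0.014 over all genes and -0.070 over the 10577 genes of the stricter filter. Medians by chromosome, over the 15 chromosomes that hold members, lay between -0.18 and 0.39. The highest was that of chromosome 6, which holds Mcm2. Chromosome 18, which holds no member, was at 0.35. The part of these shifts in the changes of the members was not tested. All 11 licensing genes fell, as did 4 of 6 genes of helicase activation. This comparison shares its control libraries with the KO comparisons, so its values stand beside theirs and are not independent of them.

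The falls in control cells were largest for Ung (-1.46 ± 0.063), Gins2 (-1.24 ± 0.077), Pold1 (-1.20 ± 0.05), Cdt1 (-1.17 ± 0.059), Lig1 (-0.80 ± 0.064), Chaf1b (-0.76 ± 0.068), E2f1 (-0.76 ± 0.059), Mcm6 (-0.74 ± 0.054) and Rfc2 (-0.70 ± 0.053). These 9 also passed against a 1.5-fold change. E2f1 went from 66.3, 65.8 and 71.1 CPM in d2 control to 38.2, 41.8 and 40.0 CPM in d4 control libraries (adjusted p = 1.03e-08), and Rfc2 from the d2 values above to 86.2, 90.9 and 92.5 CPM (adjusted p = 7.91e-09). No d4 control library reached the d2 range for any of the 9. Rising genes were Ccne2 (0.82 ± 0.17), Tyms (0.56 ± 0.064), Pcna (0.48 ± 0.048), Slbp (0.41 ± 0.053), Pola1 (0.40 ± 0.062), Fen1 (0.39 ± 0.055), Gins3 (0.27 ± 0.1) and Pole (0.14 ± 0.059). The calls of Gins3 and Pole were lost: for Gins3 without d2 control replicate 2 or 3 or d4 control replicate 1 or 3 (0.21 to 0.26) and with no filter (0.24), and for Pole without any d2 control replicate or d4 control replicate 1 or 2 (0.09 to 0.15) and under 3 of the 8 settings (0.11 to 0.15). Among the falls, the Orc1 call (-0.14 ± 0.059) was lost without d2 control replicate 1 or 2 or any d4 control replicate (-0.12 to -0.15) and under 5 of the 8 settings (-0.082 to -0.17). The Gmnn call (-0.22 ± 0.075) was lost without d4 control replicate 1 (-0.16) and under 2 of the 8 settings (-0.075 to -0.17). The Rfc5 call (-0.14 ± 0.056) was lost without d2 control replicate 1 or 3 or d4 control replicate 1 (-0.11 to -0.14) and under 4 of the 8 settings (-0.076 to -0.11), and the Rrm1 call (-0.11 ± 0.046) without d2 control replicate 1 or 3 or any d4 control replicate (-0.10 to -0.12) and under 5 of the 8 settings (-0.058 to -0.10). With the fibroblast marker sum as a covariate 21 members fell and 7 rose.

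From d2 to d4 in KO cells 22 members fell and 12 rose, where 32% of all genes fell and 31.2% rose, with a median of -0.13. The KO time course less the control one equals the KO effect at d4 less that at d2, so these values are another view of it. For Ung the change was -0.18 ± 0.061 in KO and -1.46 ± 0.063 in control cells, and for Cdt1 it was -0.35 ± 0.058 and -1.17 ± 0.059. Tyms rose by 1.11 ± 0.064 in KO cells and by 0.56 ± 0.064 in control cells. Rfc5 rose in KO cells (0.39 ± 0.056) and Rrm2 did too (0.21 ± 0.067), while in control cells Rrm2 fell (-0.35 ± 0.067). In KO cells the Rrm2 call was lost without d2 KO replicate 1 (0.15) or d4 KO replicate 3 (0.17) and with the fibroblast covariate (0.15), and the Ung call without d2 KO replicate 2 (-0.13) and under 2 of the 8 settings (-0.11 to -0.13).

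Levels in ESCs were higher than in control cells on either later day for most members. Drops and rises from ESCs below compare groups of libraries, with the limit on sublines given above. Against ESCs, 29 of 44 were lower and 8 higher in d2 control cells (34.9% and 35.6% of all genes), and 37 were lower and 3 higher in d4 control cells (35.6% and 36.2% of all genes). The summed level was 9364 to 9726 CPM in ESCs. The largest drop to d2 was that of Pcna, from 464, 461 and 457 CPM in ESCs to 212, 192 and 197 CPM in d2 control libraries (-1.20 ± 0.049), followed by Pola1 (-0.96 ± 0.061), Slbp (-0.94 ± 0.053) and Pole (-0.82 ± 0.058). By d4 it was Ung, from 232, 214 and 221 CPM in ESCs (-1.74 ± 0.064), and Cdt1, from 246, 225 and 219.8 CPM (-1.61 ± 0.059). Pcna and Tyms were lowest at d2 and higher again at d4, whereas Ung, Cdt1 and Lig1 were lower at each later day. Ccne2 was the member with the largest rise to d4 (1.04 ± 0.18), from 12.7, 16.0 and 7.98 CPM in ESCs, and the other members that rose were Gins3 (0.40 ± 0.1) and Prim2 (0.38 ± 0.064). The fibroblast markers stood far apart between the ESC libraries, as given above. With their sum as a covariate 25 members were lower and 7 higher at d2, and 28 were lower and 4 higher at d4. Leaving out 1 library gave 25 to 30 lower members at d2 and 36 to 38 at d4.

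Levels were also divided by exon length, with the exons of all annotated transcripts of a gene merged. That length can exceed the RNA that is made, so the order below depends on the annotation too. Rrm2 had the highest such value of the 44 in ESCs, at 249.8 CPM per kilobase, followed by Pcna at 192 and Mcm3 at 140.2. In d4 control cells the order at the top was Rrm2 at 121, Pcna at 117 and Mcm7 at 108 CPM per kilobase. The lowest per kilobase were Ccne2 at 3.49 and Gins3 at 6.71 in ESCs, and in d4 control cells Ccne2 at 7.21 and Pola2 at 8.28. Pola2 has 8294 bases of merged exons and Gins1 has 1516. Without the division Pola2 was at 70.5, 66.1 and 69.5 CPM in d4 control libraries and Gins1 at 23.1, 19.7 and 24.9 CPM. Between the ring subunits, Mcm7 stood at 131 and Mcm2 at 75.7 CPM per kilobase in d2 control cells.

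**Figure D4:**
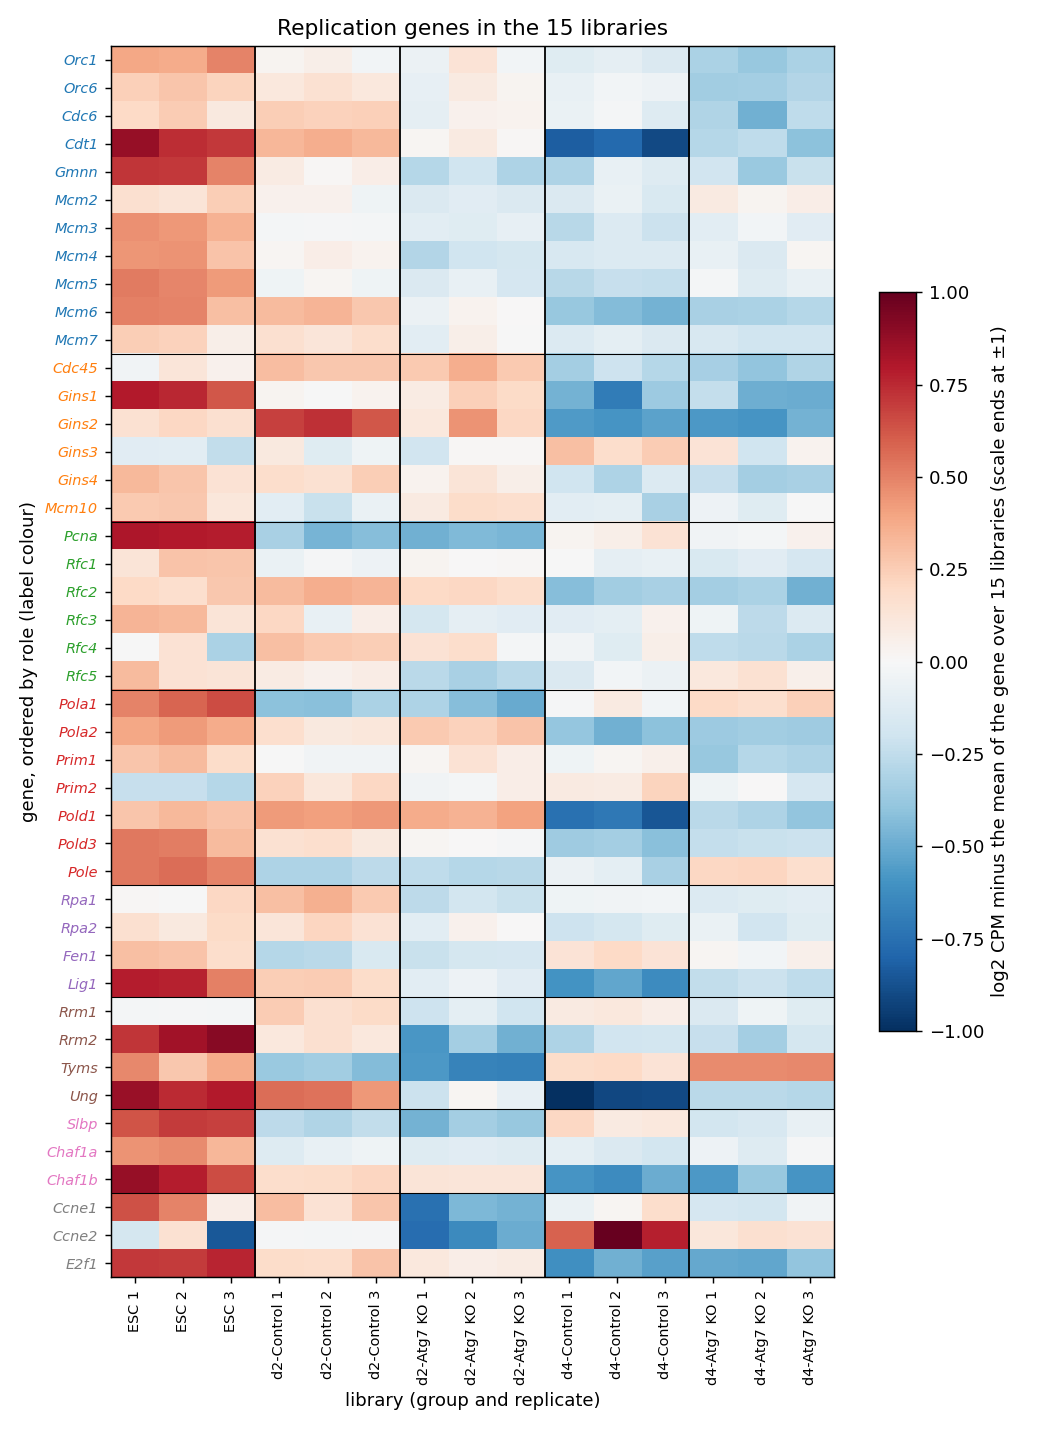
Log2 CPM of each of the 44 genes (rows, ordered and coloured by role) in the 15 libraries (columns), less the gene's mean over all libraries, with red above and blue below it and the colour scale ending at 1 on either side. The ESC columns are red for most rows, Ung, Cdt1 and Pold1 are bluest in d4 control, and Ccne2 is reddest there.

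Other genes of the pathway were counted from 5 lists, to be read beside the 20.4% of all genes that rose and 21.4% that fell at d2 and the 19.5% and 18.1% at d4. Of 33 further genes of the replication machinery, 7 rose and 7 fell in KO at d2, and 8 rose and 2 fell at d4. At d2 Dbf4, the activator of the Cdc7 kinase, rose by 0.47 and Rnaseh2b, a ribonuclease H2 subunit, by 0.37, while Pold2 and the Mcm-binding protein gene Mcmbp fell by 0.32 and 0.31. At d4 the clamp loader gene Chtf18 rose by 0.74 and Mtbp, needed for origin firing, by 0.70. The 2 that fell at d4 were Tipin (-0.32 ± 0.055) and Orc3 (-0.19 ± 0.068), and Orc3 lost its call without any 1 of the 6 d4 libraries (-0.17 to -0.21) and with no filter (-0.18). Of 25 E2F-linked and S phase genes outside the machinery, 5 rose and 10 fell at d2, and 8 rose and 5 fell at d4. Among these Dut, the dUTPase, fell at d2 (-0.53 ± 0.058), and Mybl2, a partner of the MuvB complex, rose at d4 (0.91 ± 0.046). Tcf19 fell on both days (-0.94 ± 0.16 and -0.93 ± 0.18).

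Of 29 genes that govern S phase entry, 8 rose and 8 fell at d2, 27.6% each beside 20.4% and 21.4% of all genes. At d4 7 rose and 4 fell, 24.1% and 13.8% beside 19.5% and 18.1%, and no result about the list is read from these shares. Ccnd1, cyclin D1, rose at d2 (0.89 ± 0.096) and d4 (0.56 ± 0.099), and Cdkn1b, the inhibitor p27, rose at d2 (0.87 ± 0.098). Cdc25a, the phosphatase that activates Cdk2, fell at d2 (-0.52 ± 0.057), and the inhibitor gene Cdkn1c fell on both days (-1.31 ± 0.13 and -0.92 ± 0.13). At d4 E2f8, a repressing E2F, rose (0.55 ± 0.088) and Cdkn2a fell (-0.63 ± 0.11). Of the 13 replication checkpoint genes tested out of 15 listed, 6 rose and none fell at d2, and 3 rose and 2 fell at d4. Cdc25c rose at d2 (1.25 ± 0.076) and fell at d4 (-0.37 ± 0.077). Cdc25c is a chromosome 18 gene, and the part of that chromosome's d2 shift (median 0.56) in its values was not tested. Without it 5 of 12 rose at d2. Smarcal1 rose on both days (0.44 ± 0.07 and 0.28 ± 0.073), Wee1 rose at d4 (0.37 ± 0.07), and Rad17 fell at d4 (-0.18 ± 0.052), a call lost without d4 control replicate 2 (-0.16) or d4 KO replicate 2 (-0.16).

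G2 and M phase genes went the other way from the replication genes at d2. Of 26, 20 rose and none fell in KO at d2, with a median of 0.42, and at d4 1 rose and 16 fell, with a median of -0.24. The KO effect was lower at d4 than at d2 for 21 of 26 and higher for none, beside 17.6% and 18.6% of all genes. Kif20a, a kinesin of cytokinesis, was at 129, 125 and 134 CPM in d2 control and 298, 272 and 280.2 CPM in d2 KO libraries (1.13 ± 0.048). It is on chromosome 18 too, and the part of that chromosome's shift in its value was not tested. Without it 19 of 25 rose at d2, with a median of 0.40, and the KO effect was lower at d4 for 20 of 25. Kif11, a spindle kinesin, also rose (0.93 ± 0.06). At d4 Ttk (-0.39 ± 0.053) and Tpx2 (-0.37 ± 0.043) fell and Aurkb rose (0.33 ± 0.093). Their summed level was 4455 to 4555 CPM in d2 control, 5751 to 6209 in d2 KO, 7380 to 7778 in d4 control and 6591 to 6825 in d4 KO libraries. In d2 KO libraries the summed G2 and M level was thus above and the summed replication level below every d2 control library. Between d2 and d4 in control cells 22 of the 26 rose and 2 fell, beside 33.9% and 34.6% of all genes. The part of G2 and M phase genes in the differences of the replication genes was not tested.

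**Figure D5:**
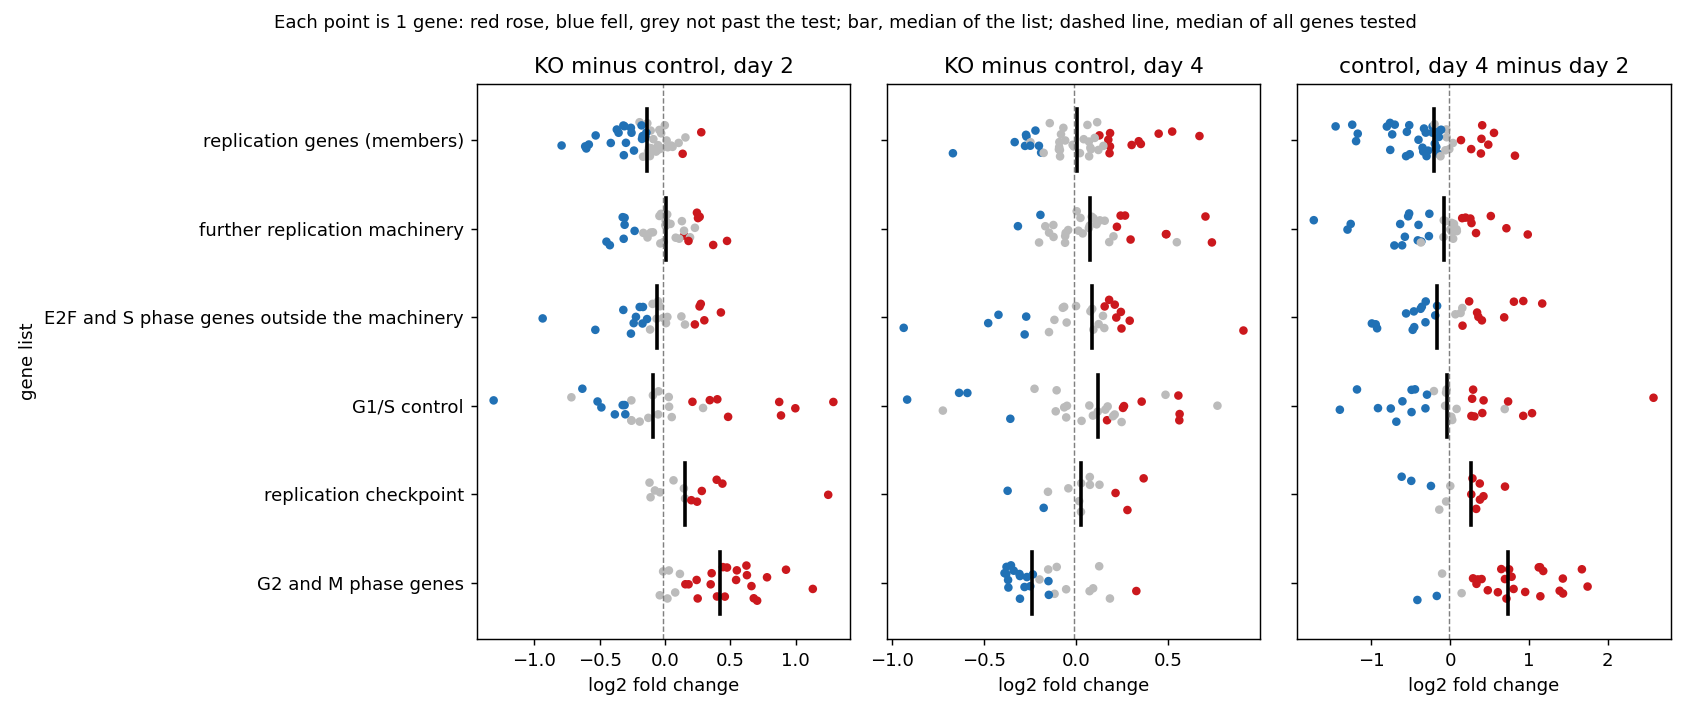
Log2 fold changes (x axis) of each gene in the 44 replication genes and 5 other lists (rows) for KO minus control at d2, at d4, and for control d4 minus d2. Red points rose, blue fell and grey did not pass, the bar is the median of a list and the dashed line that of all genes, and at d2 the median of the replication genes lies left and that of the G2 and M genes right of that line.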

How the data were processed

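The authors deposited a table of raw counts of reads per gene symbol for each library. The submitters' processing notes name STAR, StringTie, featureCounts and DESeq2 and the builds GRCm38 and mm10. Neither versions, annotation and strandedness nor the treatment of shared reads were found in the labels or files. The counts of 15 libraries were tested with edgeR 4.0.16 (limma 3.58.1, R 4.3.3): filterByExpr (minimum count 10, minimum total 15), which kept 15696 of 24982 symbols, TMM scaling, and 1 quasi-likelihood fit with a mean per group. Benjamini-Hochberg adjustment ran over all 15696 genes, and 0.05 was the threshold. The scripts were tested on simulated data. DESeq2 1.42.0, other scaling and filters, only the groups compared, a replicate block, a 1.5-fold threshold and leaving out 1 library were alternatives. A fit without 2 libraries and a fibroblast marker covariate were added after seeing the data. Libraries of a group differed from each other by more than sampling noise (chi-square per degree of freedom 3.2 to 31.8). Pairs with ESC replicate 3 gave 24.2 and 31.8, and all others 3.2 to 7.0. The 15 libraries share 1 estimate of the spread, so that library also enters the p-values of the KO comparisons.

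The members and lists were chosen with earlier results of these data known. Every member could be named. Values in every library are given, per role group, for the 2 members with the smallest p in each KO comparison and the 1 with the smallest p for the difference between days and for control d4 against d2, with a few others picked after their values were seen. Of each other list up to 2 risen and 2 fallen genes per KO comparison are named. The lists were 8 role groups of the members; further replication machinery, E2F and S phase genes, G1/S control, replication checkpoint, and G2 and M phase genes; and markers of fibroblasts, pluripotent cells, primitive endoderm and trophoblast. Gene lengths, exon overlaps and pseudogene names came from GENCODE, and promoter windows from RefSeq (GRCm38.p6). No genome sequence was used here. CPM are counts relative to the TMM-scaled total, and an SE is the log2 difference over the root of the quasi-likelihood F.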

Additional observations from a re-analysis of the deposited data

Results flagged for a closer look

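The KO effect differed between d2 and d4 for 20 of the 44 genes, by edgeR's test of that difference (adjusted p under 0.05), and these are the results that stood out. Each value is the log2 KO effect at d4 less that at d2. Among licensing genes it was 0.82 for Cdt1, 0.333 for Mcm2, 0.216 for Mcm3, 0.341 for Mcm4, 0.281 for Mcm5 and 0.431 for Mcm6. For Gins2 it was 0.436 and for the loader subunit Rfc5 0.537. In the polymerase group it was 0.497 for Pold1, 0.283 for Pold3, 0.33 for Pole and -0.437 for Prim1. Single-strand and Okazaki factors gave 0.443 for Rpa1, 0.221 for Rpa2 and 0.655 for Lig1. The nucleotide enzymes gave 0.179 for Rrm1, 0.564 for Rrm2 and 0.557 for Tyms, and the glycosylase Ung gave 1.27. Ccne1 gave 0.615. The difference for Rpa2 did not pass without d2 control replicate 2, d2 KO replicate 1, d4 control replicate 1 or 2, or d4 KO replicate 1 or 3 (0.18 to 0.22), and under 2 of the 8 other settings named in the report (0.15 to 0.23).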

How the results depend on the processing

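Every alternative run kept the direction of each difference given with its SE or adjusted p. Counts of members past the threshold moved most when the test was against a 1.5-fold change. At d2 0 then rose and 0 fell, at d4 0 rose and 0 fell, and the KO effect was higher at d4 for 2 and lower for 0. In control cells 0 rose and 9 fell from d2 to d4, in KO cells 1 rose and 2 fell, from ESCs to d2 control 0 rose and 6 fell, and from ESCs to d4 control 1 rose and 16 fell. Without the filter on low counts 1 member rose at d2. With only the groups compared 4 rose at d2, and for 6 the KO effect was lower at d4. With at least 10 CPM in 3 libraries 14 fell at d4 and for 6 the KO effect was lower at d4. Scaling by DESeq2's size factors in edgeR, and DESeq2 itself, each gave 3 with a lower effect at d4. The fibroblast covariate, added after the data were seen, gave 1 that rose at d2 and 3 with a lower effect at d4. Leaving out 1 library gave 1 to 2 that rose and 15 to 18 that fell at d2, 8 to 11 and 7 to 9 at d4, and 16 to 19 higher and 1 to 3 lower for the difference between days. The count that rose at d2 was 1 without d2 control replicate 2 or 3 or d2 KO replicate 1 or 3. The causes were not tested.

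The replicate numbers of the groups did not pair the libraries: correlations of same-numbered deviations lay between -0.05 and 0.06 over 18 same-numbered pairs of libraries, 0 were over 0.1, and 6 libraries correlated best with their own number. With a replicate block 2 rose and 19 fell at d2, 11 rose and 9 fell at d4, and the KO effect was higher at d4 for 18 and lower for 1. With 3 libraries a group and no KO at day 0, small differences and their start cannot be resolved.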
